A study of Rattus norvegicus with 7 samples.

Results

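The glutathione S-transferase (Gst), UDP-glucuronosyltransferase (Ugt) and sulfotransferase (Sult) genes were followed across the classes of nuclei of the rat kidney and between rats with 1 kidney and rats with 2. Members were taken by symbol alone, as every gene whose symbol begins with Gst, a letter and a digit, with Ugt and a digit, or with Sult and a digit. This gave 42 of the 25399 genes in the feature table: 23 Gst, 7 Ugt and 12 Sult genes, none of which shared its symbol with another gene. Gstm3, Gstm3l and Gstm5 had 0 UMIs in all 7 libraries, and each library held a UMI of 33 to 36 members. The data are single-nucleus RNA counts from archived kidneys of the HSRA rat model at 4 weeks of age. By title, 3 libraries came from rats with 1 kidney and 4 from rats with 2. The protocol names 2 kinds of animal, 4 HSRA-C and 3 HSRA-S, and the labels do not tie these names to single libraries. In this model some offspring are born with a single kidney. No drug treatment or transgene is named. The nuclei came from a central piece of kidney that held both cortex and medulla, and each library was taken as 1 rat, so p-values measure the spread between these libraries.

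Conjugating enzymes attach a bulky or charged group to drugs, hormones, bile acids and reactive by-products, which makes them easier to excrete. Cytosolic Gst enzymes attach glutathione, Ugt enzymes of the endoplasmic reticulum attach glucuronic acid, and Sult enzymes attach sulfate from the donor PAPS. In the kidney this chemistry is known mainly from the proximal tubule, which takes up organic anions from blood and passes conjugates into urine.

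After filtering, the libraries held 2263 to 5952 nuclei each, with 5581726 to 27069632 UMIs per library. Replicates 3 and 4 of the 2-kidney group bear the set name P1117B and the other 5 libraries P1117. No source used here explains these names, and no 1-kidney library is in P1117B. The Y-linked transcript Kdm5d was read in all 7 libraries at 99.9 to 127 CPM (UMIs scaled to a common total). Nuclei fell into 23 clusters, of which 4 stayed unnamed with shares of nuclei of 19.4% ± 7.11 in 1-kidney (SD, n = 3) and 15.8% ± 4.43 in 2-kidney libraries (SD, n = 4). The unnamed nuclei hold 43.4% of all UMIs, 32.3 to 52.0% by library, so the values for all retained nuclei rest on them to that extent. A single unnamed cluster of 3104 nuclei holds 40.4% of all UMIs. Its nuclei had a median of 9158.5 UMIs, 4.63 times the median of their library. Their median doublet score was 0.102, against 0.0326 and 0.0233 in the 2 proximal tubule clusters. What these nuclei are was not tested. Pairs of libraries shared 3 to 14 barcodes. Comparisons used 9 classes that had at least 50 nuclei in every library, and the proximal tubule was also taken as its 2 clusters. Cycling nuclei, 84 to 176 per library, also met this bar and were not compared. The cluster led by Slc7a13, a transporter of the straight segment, is called straight, and the one that holds Slc5a12, a transporter of the convoluted segment, convoluted. The convoluted cluster passed a 2-fold bar for 14 of 15 proximal tubule markers and the straight cluster for 3. All levels are CPM, a share of the UMIs of a class that is not corrected for gene length, so genes are compared with themselves across classes and not with each other. A sum of nuclei cannot tell fewer expressing nuclei from less RNA in each.

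For 4 genes on which the results below turn, RefSeq promoter windows of build GRCr8 are shown, from 250 bases before to 50 after the start, 5′ to 3′ in gene orientation: Sult1c2a because it held most of the member UMIs, Ugt1a6 because it was the Ugt gene with the most UMIs and differed between segments, Gsta5 because it passed the test between the groups, and Gsta2 because it is the next Gst gene on the same chromosome and had a log2 fold change of the opposite sign in proximal tubule. Capitals mark matches, on either strand, to 5 short motifs: TGACNNNGC (antioxidant response element), GTTAAT (a short AT-rich motif), GCGTG (core of a dioxin response element), TGTTCT (core of a glucocorticoid response element) and TATAAA. The windows lie at chr9:7103153-7103452 (minus strand), chr9:96194768-96195067 (plus), chr8:87988104-87988403 (plus) and chr8:88077043-88077342 (minus).
Sult1c2a: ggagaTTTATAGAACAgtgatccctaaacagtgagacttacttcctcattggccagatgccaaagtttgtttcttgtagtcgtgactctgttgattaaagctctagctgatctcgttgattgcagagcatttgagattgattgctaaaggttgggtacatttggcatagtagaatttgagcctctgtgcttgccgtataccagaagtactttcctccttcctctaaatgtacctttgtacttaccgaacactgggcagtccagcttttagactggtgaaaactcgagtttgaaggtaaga
Ugt1a6: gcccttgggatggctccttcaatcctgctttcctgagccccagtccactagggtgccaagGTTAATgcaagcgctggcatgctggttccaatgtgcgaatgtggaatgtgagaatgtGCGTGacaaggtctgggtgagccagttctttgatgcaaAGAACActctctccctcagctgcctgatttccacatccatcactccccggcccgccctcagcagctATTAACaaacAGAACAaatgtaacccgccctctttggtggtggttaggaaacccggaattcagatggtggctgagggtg
Gsta5: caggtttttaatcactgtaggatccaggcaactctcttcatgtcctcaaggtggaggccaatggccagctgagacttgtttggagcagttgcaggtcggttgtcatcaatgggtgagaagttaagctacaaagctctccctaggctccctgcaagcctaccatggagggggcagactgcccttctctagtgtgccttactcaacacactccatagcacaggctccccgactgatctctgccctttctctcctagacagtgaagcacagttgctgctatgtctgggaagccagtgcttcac
Gsta2: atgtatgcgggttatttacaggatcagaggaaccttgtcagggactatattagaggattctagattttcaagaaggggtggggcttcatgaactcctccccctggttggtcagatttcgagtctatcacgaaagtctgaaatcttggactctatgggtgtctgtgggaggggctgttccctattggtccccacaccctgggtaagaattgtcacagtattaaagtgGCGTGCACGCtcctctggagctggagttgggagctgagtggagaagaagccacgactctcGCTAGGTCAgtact

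The Sult1c2a window holds 1 TGTTCT and 1 TATAAA, both on the reverse strand and sharing a base, from base -245 to base -235, where base 0 is the start. In the Ugt1a6 window there are 2 matches to GTTAAT, 1 to GCGTG and 2 to TGTTCT. The Gsta5 window holds none of the 5 motifs, and it begins inside the annotated gene, at the start of one of its transcripts. The Gsta2 window holds 2 GCGTG matches, 1 on each strand, between bases -24 and -15, and 1 TGACNNNGC on the reverse strand from base 36 to base 44. RefSeq windows were matched by symbol for 36 of 42 members. Among these, TGACNNNGC was present for 7, GTTAAT for 5, GCGTG for 10, TGTTCT for 12 and TATAAA for 9. Over all 33469 windows the shares holding each motif were 12.1%, 7.45%, 29.7%, 20.7% and 14.2%. These matches are descriptions of the letters in the window. No window was printed or searched for Gstm3l, Gstm6l, Gstt1, Gstt2, Sult4a1 and Ugt3a2. Many members stand side by side in the genome. Gsta4, Gsta5 and Gsta2 follow each other on chromosome 8 with gaps of 21.3 and 67.1 kb, Gsta3, Gsta1 and Gsta6 on chromosome 9, the Gstt genes on chromosome 20, the Gstm genes on chromosome 2, and Sult1e1, Sult1d1, Sult1b1 and the Ugt2 genes on chromosome 14. Neighbours of this kind share sequence, and the authors' counting could split reads between them, so the values of Gsta, Gstm, Gstt, Sult1c and Ugt2b genes are uncertain to that extent.

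The members held 392710 UMIs in all, 104859 from Gst, 44152 from Ugt and 243699 from Sult genes. Of them 228324 came from a single gene, Sult1c2a, a sulfotransferase of the Sult1c group. Its level in proximal tubule was 3389, 3349.5 and 2944 CPM in the 1-kidney libraries and 4922, 3605, 1519.7 and 1875 CPM in the 2-kidney libraries. The 2-kidney libraries thus spread on both sides of the 1-kidney ones, with the 2 libraries of set P1117B lowest. Sult1c2a made up 63.6% ± 7.21 of the proximal tubule CPM of all members (SD, n = 7), and 27.9% ± 8.20 of that in thick ascending limb. In proximal tubule the Gst genes summed to 1128 ± 178 CPM, the Ugt genes to 336 ± 80.7 and the Sult genes to 3269 ± 1139. In podocytes, the filter cells of the glomerulus, the same sums were 148 ± 38.0, 181 ± 59.9 and 211 ± 145 CPM. Of the 42 members, 22 reached a mean of 20 CPM in at least 1 class or proximal cluster (13 Gst, 4 Ugt and 5 Sult genes), 9 lay between 1 and 20 CPM and 11 below 1 CPM.

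**Figure D1:**
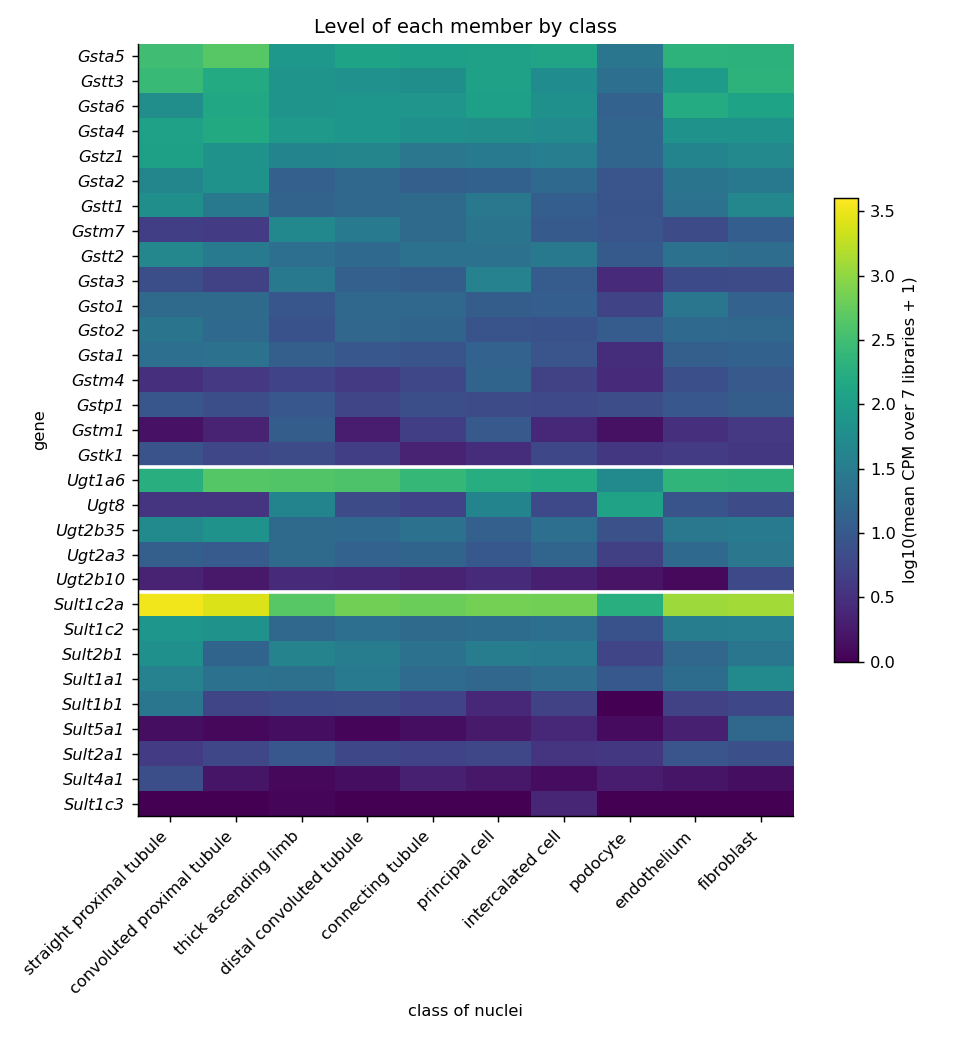
Mean level of each member with at least 1 CPM in some class, as log10(mean CPM over 7 libraries + 1), with genes in rows by family and classes of nuclei in columns. Sult1c2a is the brightest row and reaches 3325 CPM in the straight proximal tubule, while Ugt8 is brightest in podocytes at 117 CPM.

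Within the proximal tubule, 4 Sult and 2 Gstt genes were higher in the straight cluster in every library, and 4 Gsta genes and Ugt1a6 in the convoluted one. Of the 20 members with at least 200 UMIs in both clusters together, 8 were higher in the straight cluster in all 7 libraries, 5 were higher in the convoluted cluster in all 7, and 7 did neither. The clusters were built without the member genes among the variable genes, but from the same nuclei, so these are descriptions without a test. The share of all genes at this UMI bar that split the clusters in the same way was not computed. These counts therefore cannot be read as a trait of the members. Sult2b1, which sulfates cholesterol and pregnenolone, was at 49.8, 49.8, 69.4, 75.4, 92.7, 48.0 and 63.0 CPM in the straight cluster of 1-kidney replicates 1 to 3 and 2-kidney replicates 1 to 4. In the convoluted cluster it was at 5.90, 12.1, 11.5, 21.1, 15.5, 16.8 and 11.6 CPM in the same order. The lowest straight value of Sult2b1 was above the highest convoluted value, and the ratio of means was 4.75. Sult1b1, a sulfotransferase of phenols and thyroid hormone, had the highest ratio, 5.18, from 24.5 ± 8.19 CPM in the straight and 4.73 ± 2.88 in the convoluted cluster (SD, n = 7). The other members higher in the straight cluster were Gstt1 (ratio 2.24), Sult1a1, which sulfates phenols (1.83), Gstt3 (1.71), Gstz1, an enzyme of tyrosine breakdown (1.61), Gstk1, a mitochondrial and peroxisomal enzyme (1.48), and Sult1c2a (1.31). Sult4a1, a sulfotransferase known mainly from brain, fell under the UMI bar for this count. It held 111 UMIs in the straight cluster, at 6.36 ± 1.77 CPM, and 5 UMIs in the convoluted cluster.

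Ugt1a6, which glucuronidates small phenols, showed the opposite pattern. In the straight cluster its lowest, median and highest levels over the 7 libraries were 127, 170.2 and 293 CPM. In the convoluted cluster they were 365, 424 and 671 CPM, with no overlap between the clusters and a ratio of 0.399. The rat table lists Ugt1a6 alone from the Ugt1a locus, where alternative first exons join shared downstream exons, so 3′ counts of it may hold other Ugt1a transcripts. Gsta6 (0.425), Gsta2 (0.646), Gsta5 (0.667) and Gsta4 (0.743) were the other members higher in the convoluted cluster in every library. Gsta4, which clears the lipid aldehyde 4-hydroxynonenal, was at 152 ± 46.5 CPM in the convoluted and 113 ± 28.4 CPM in the straight cluster, the least separated of the 5. Gsta5 was at 464 ± 183 and 309.7 ± 119 CPM. Among the members that did neither, Gstt2 was higher in the straight cluster in 6 libraries, and Gsto1, an omega-class enzyme that can reduce dehydroascorbate, in 4.

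**Figure D2:**
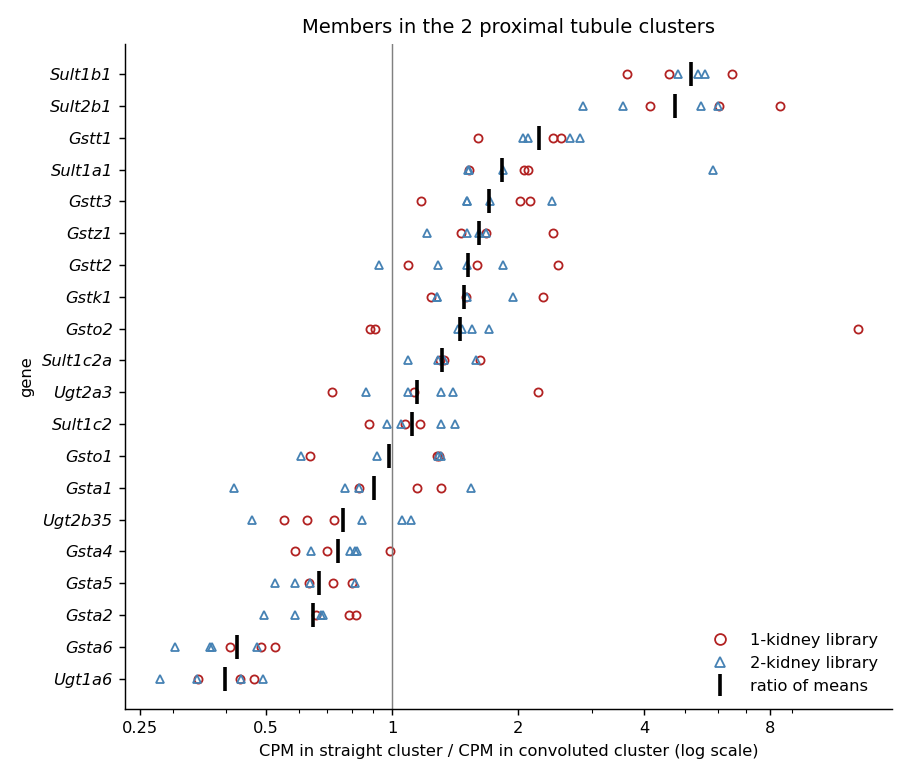
Ratio of the level in the straight to the level in the convoluted proximal tubule cluster (log scale) for 20 members, with 1 point per library (circles 1-kidney, triangles 2-kidney) and a bar at the ratio of means. The ratios run from 5.18 for Sult1b1 to 0.399 for Ugt1a6, and a library with 0 CPM in a cluster has no point.

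Droplets also take up transcripts from outside the nucleus, and the files used here hold no empty droplets to measure them. Each library's 15 proximal tubule markers were therefore set beside the members, as the mean level in a class over that in proximal tubule. The markers had a median ratio of 0.342 in thick ascending limb, 0.478 in distal convoluted tubule, 0.417 in connecting tubule, 0.413 in principal cells, 0.456 in intercalated cells, 0.131 in podocytes, 0.752 in endothelium and 0.630 in fibroblasts. None of the 15 was at 0 in these classes. How much of a level comes from outside the nucleus was not tested, and a member at or below the highest marker ratio cannot be told apart from such transcripts here. With doublets kept the median ratio was 0.724 in intercalated cells and 0.207 in podocytes, and with members among the variable genes it was 0.467 in endothelium. Members above the highest marker numbered 15 of 29 compared in thick ascending limb (highest marker 0.609), 11 of 28 in distal convoluted tubule (0.890), 11 of 28 in connecting tubule (0.765), 8 of 29 in principal cells (0.815), 6 of 28 in intercalated cells (0.832), 9 of 28 in podocytes (0.315), 7 of 28 in endothelium (1.29) and 10 of 29 in fibroblasts (1.07). Sult1c2a was not among them in any class, with 463 CPM in thick ascending limb and 186 CPM in podocytes. The markers were chosen as genes of the proximal tubule, so genes not enriched there can lie above them. The share of all genes above the highest marker was not computed, so these counts cannot be read as a trait of the members.

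Ugt8 stood furthest above the markers. It encodes the ceramide galactosyltransferase that makes galactosylceramide, the first step to the sulfatide lipids of myelin and kidney, and so has an endogenous substrate unlike most of its family. In podocytes its level was 26.1, 85.8 and 103 CPM in the 1-kidney and 115, 134, 133 and 221 CPM in the 2-kidney libraries, from 455 UMIs in all. In proximal tubule it was at 2.41 ± 0.895 CPM (SD, n = 7), so that podocytes stood 48.4-fold higher, with a range of 19.9 to 67.1 over libraries. Ugt8 also exceeded proximal tubule in all 7 libraries in thick ascending limb, at 40.7 ± 11.1 CPM, and in principal cells of the collecting duct, at 41.0 ± 26.5 CPM. In distal convoluted tubule it was at 5.85 ± 3.97 and in intercalated cells at 5.23 ± 5.72 CPM. Thin limb nuclei, too few in some libraries to compare, held 230 Ugt8 UMIs, or 151 CPM when pooled (exact Poisson interval 132 to 171, counting error only).

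Gstm7, Gstm1, Gstm4 and Gsta3 were above proximal tubule in thick ascending limb in 7 of 7 libraries. The other 5 mu-class genes held 0 or 1 UMI each. Gstm7 was at 46.8 ± 24.9 CPM in thick ascending limb, the salt-reabsorbing limb of Henle's loop, against 3.55 ± 1.63 CPM in proximal tubule. Over the 7 libraries the thick ascending limb values were lowest at 16.6, median at 49.4 and highest at 83.0 CPM, and each was at least 5.63-fold above its own proximal tubule. Gstm7 was at 30.3 ± 14.6 CPM in distal convoluted tubule, 23.4 ± 10.7 in principal cells and 16.6 ± 6.03 in connecting tubule. The SDs of neighbouring classes in this order overlap. By library, thick ascending limb was the highest class in 5 of 7. Gstm4 in distal convoluted tubule was above proximal tubule in 4 of 7 libraries. Pooled over libraries, the thick ascending limb cluster led by Egf held Gstm7 at 78.9 CPM (exact Poisson interval 64.6 to 95.5), the large cluster led by Slc12a1 at 39.5 (33.7 to 45.9) and the smaller Slc12a1 cluster at 13.7 (6.55 to 25.1). These intervals cover counting error only. By library, Gstm7 ran from 18.5 to 165 CPM in the Egf cluster and from 18.3 to 74.1 CPM in the large Slc12a1 cluster, and the Egf cluster was higher in 6 of 7 libraries, all but 2-kidney replicate 3. Gstm1 rested on 63 UMIs over the 3 clusters. Gsta3 was at 38.0 ± 17.3 CPM in principal cells and 27.6 ± 8.75 in thick ascending limb, beside 5.56 ± 2.37 in proximal tubule, and was above proximal tubule in all 7 libraries in both. Gstm4 reached 13.6 ± 3.94 CPM in principal cells, against 2.23 ± 1.19.

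Ugt1a6 exceeded the highest marker ratio in thick ascending limb, distal convoluted tubule and connecting tubule, and not in the other 5 classes. In thick ascending limb it was at 376, 381 and 406 CPM in the 1-kidney and 457, 537, 440.0 and 367 CPM in the 2-kidney libraries, above proximal tubule as a whole in 7 of 7 libraries and 1.60-fold higher on average. In distal convoluted tubule it was at 391 ± 34.9 CPM and above proximal tubule in 6 of 7. Its order of means then ran convoluted proximal tubule (446 ± 104), thick ascending limb (423 ± 60.3), distal convoluted tubule, connecting tubule (247 ± 65.5), endothelium (225 ± 43.1), fibroblasts (214 ± 39.3), straight proximal tubule, principal cells (174 ± 30.4), intercalated cells (160.2 ± 43.5) and podocytes (52.5 ± 28.9). The SDs of the first 3 of these overlap, as do those of the next 3. By library, the convoluted cluster was the highest in 3 of 7. In principal cells, intercalated cells, podocytes, endothelium and fibroblasts the level lies within the range of the marker ratios.

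In the supporting cells, Gsta6 was at 163 ± 20.2 CPM in endothelium and 123 ± 31.1 in fibroblasts against 84.2 ± 17.8 in proximal tubule, and was above it in 7 of 7 libraries in both. Its level in endothelium lay within the spread of the 139 ± 36.5 CPM of the convoluted cluster, and by library endothelium was its highest class in 5 of 7. Sult1a1 was at 51.2 ± 24.0 and Ugt2a3 at 25.7 ± 11.2 CPM in fibroblasts, against 33.0 ± 15.7 and 11.0 ± 2.70 in proximal tubule, with fibroblasts higher in 7 of 7 libraries for each. Sult5a1 was at 0, 7.92 and 0 CPM in the fibroblasts of the 1-kidney and 16.8, 6.73, 34.8 and 41.1 CPM in those of the 2-kidney libraries, from 57 UMIs. These values overlap between the groups, and Sult5a1 fell under the filter for the test in this class. Without that filter it was lower in the 1-kidney libraries (edgeR adjusted p 0.0451), with 2 of 3 of them at 0. In that setting 204 of 16665 genes were called in fibroblasts.

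**Figure D3:**
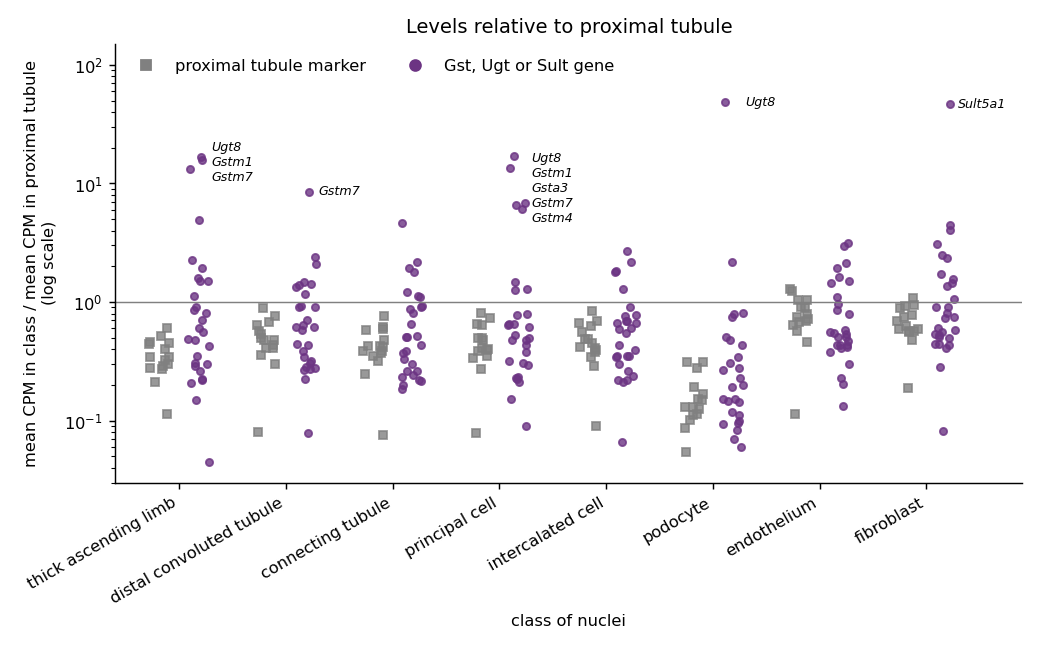
Mean CPM in each class over mean CPM in proximal tubule (log scale), for the 15 proximal tubule markers (grey squares) and the members compared (purple circles), with names for members above a ratio of 6. In podocytes the markers lie between 0.0547 and 0.315 and Ugt8 at 48.4.

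The 1-kidney libraries were compared with the 2-kidney libraries, which addresses how the nuclei of rats with 1 kidney differ. One member passed the test in 1 class: Gsta5, an alpha-class transferase, was higher in the fibroblast nuclei of the 1-kidney libraries. Its ratio to proximal tubule in that class, 0.577, lies within the marker range, so transcripts from outside these nuclei cannot be told apart from their own. Elsewhere no member passed, and the following values describe those with the smallest p. A gene was called at an edgeR quasi-likelihood p under 0.05 after Benjamini-Hochberg adjustment over all genes tested in the class. In all retained nuclei 0% of 14951 genes were called and 0 of 30 members. Without adjustment p was under 0.05 for 20.6% of genes and for 9 of 30 members, 6 higher and 3 lower. DESeq2 called 3.14% of genes and 4 members here (Gsta5, Gsta6, Sult2a1 and Ugt8). Every 1-kidney library was above every 2-kidney library for 7.99% of genes and 5 members, and below for 10.7% of genes and 2 members. The median log2 fold change (1-kidney over 2-kidney) was 0.23 over the members and -0.01 over all genes. In proximal tubule 0% of 11191 genes were called and 0 of 26 members. There 16.9% of genes and 7 members had an unadjusted edgeR p under 0.05, and DESeq2 called 1.05% of genes and 1 member (Sult1a1). Groups stood fully apart upward for 8.02% of genes and 2 members, and downward for 6.66% of genes and 1 member. The median was 0.11 over the members and -0.01 over all genes. In simulated counts the same test found 42% of genes changed 2-fold and 91% of those changed 4-fold in proximal tubule.

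Gsta5 in fibroblasts was at 331, 296 and 272 CPM in the 1-kidney and 111, 162, 109 and 171 CPM in the 2-kidney libraries, from 482 UMIs. Every 1-kidney value lay above every 2-kidney value. The means were 299.5 ± 29.5 and 138 ± 32.6 CPM (SD, n = 3 and 4), a log2 fold change of 1.16 ± 0.23 (SE) with an edgeR adjusted p of 0.0212. In this class 0.653% of 6735 genes were called, and 15.8% had an unadjusted p under 0.05, against 5 of 14 members, all 5 upward. Proximal tubule transcripts differed between the same libraries: the 15 markers summed to 26640 to 37126 CPM in the fibroblasts of the 1-kidney and 13019 to 23486 CPM in those of the 2-kidney libraries. Of these markers 14 had a log2 fold change above 0, with a median of 0.53 and a range of -0.11 to 1.13, and none was called (smallest edgeR adjusted p 0.0672). The 6 measured fibroblast markers, with Lum at 0, summed to 1145 and 2074 CPM, without overlap. Their part in the Gsta5 difference was not tested. Gsta5 itself stood at 0.577 of its proximal tubule level in fibroblasts, beside the median marker ratio of 0.630. The edgeR adjusted p of Gsta5 rose to 0.110, 0.208 and 0.0549 without 1-kidney replicates 1, 2 and 3, to 0.0644 without 2-kidney replicate 3, and to 0.0629 with predicted doublets kept. It was 0.0330 without set P1117B. The other 4 fibroblast members with an unadjusted p under 0.05 were Ugt2b35 (log2 1.33), Sult1a1 (1.05), Ugt2a3 (0.99) and Gsta4 (0.67), whose edgeR adjusted p were 0.186, 0.186, 0.277 and 0.265.

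In other classes the log2 fold change of Gsta5 was 0.79 ± 0.22 in all retained nuclei (edgeR adjusted p 0.172), 0.59 ± 0.24 in proximal tubule (0.265), 0.79 ± 0.24 in its straight (0.2499) and 0.64 ± 0.27 in its convoluted cluster (0.332), 0.65 ± 0.27 in distal convoluted tubule (0.286), 0.71 ± 0.28 in connecting tubule (0.207), 0.85 ± 0.22 in thick ascending limb (0.141), 1.11 ± 0.37 in principal cells (0.199), 0.87 ± 0.26 in intercalated cells (0.265), 1.10 ± 0.25 in endothelium (0.137) and 0.50 ± 0.43 in podocytes (0.741). The classes come from the same libraries, so these values are not separate observations. In proximal tubule the libraries overlapped, at 588, 357 and 401 CPM against 229, 392, 265 and 286. In endothelium they did not, at 468, 219 and 219.8 CPM against 116, 153, 147 and 141, with 1-kidney replicate 1 highest. The change in fibroblasts exceeded that in proximal tubule by 0.61 ± 0.21 on the log2 scale, a difference that missed the threshold (edgeR adjusted p 0.269). In that test 0.31% of 10652 genes were called and 0 of 24 members, 4 of them at an unadjusted edgeR p under 0.05. Medians of the 15 proximal tubule markers under the same comparison were 0.61 in thick ascending limb, 0.73 in principal cells, 0.34 in intercalated cells, 0.49 in endothelium and 0.60 in podocytes, against -0.16 in proximal tubule.

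**Figure D4:**
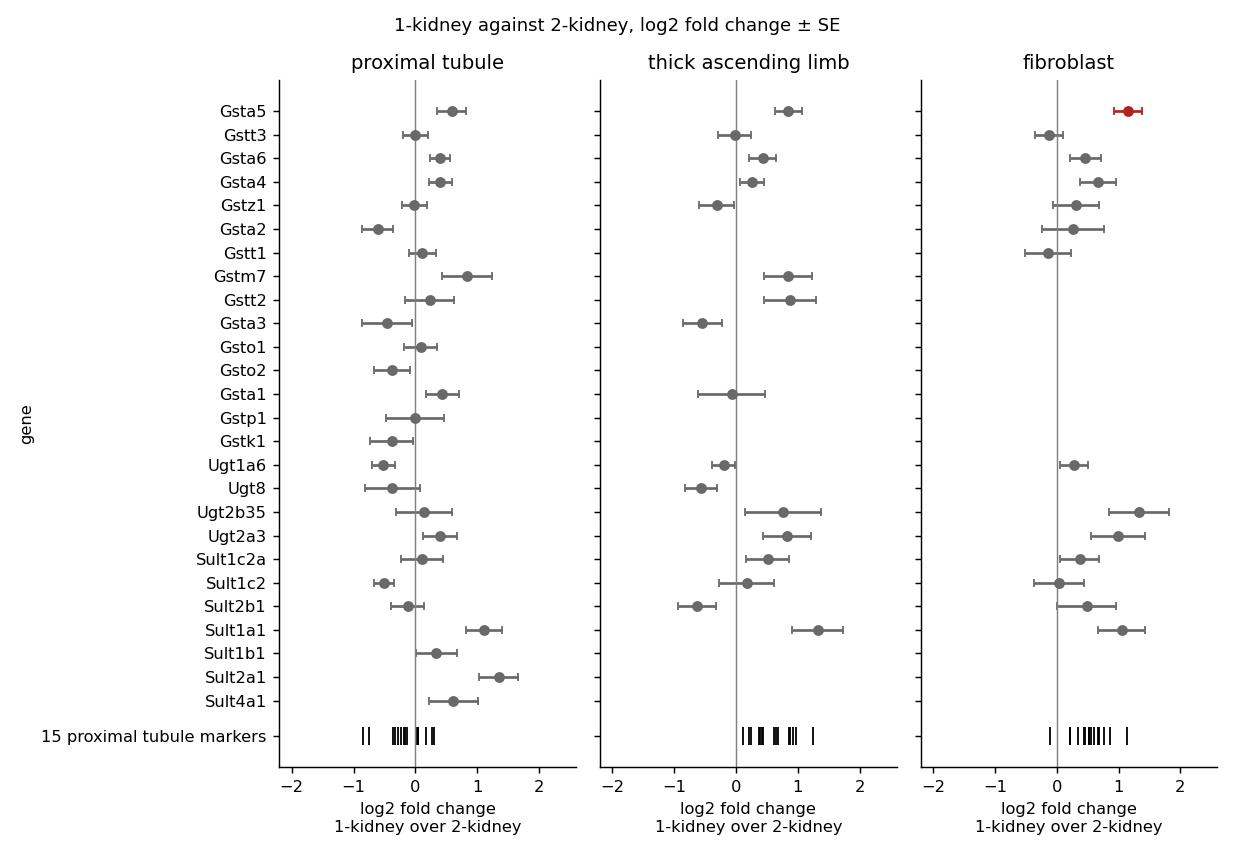
Log2 fold change, 1-kidney over 2-kidney, with its SE for the members tested in proximal tubule, thick ascending limb and fibroblasts, and the 15 proximal tubule markers as ticks in the bottom row. The red point, Gsta5 in fibroblasts at 1.16, is the member called in these 3 classes.

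Of the other alpha-class genes, Gsta6 in all retained nuclei was at 115, 134 and 118 CPM in the 1-kidney and 107, 78.2, 76.0 and 73.1 CPM in the 2-kidney libraries. All 1-kidney values were higher, with a log2 fold change of 0.59 ± 0.14 (edgeR adjusted p 0.168). Its change was 0.79 ± 0.22 in the straight cluster (0.240), 0.81 ± 0.25 in distal convoluted tubule (0.196), 0.68 ± 0.23 in connecting tubule (0.167) and 0.71 ± 0.24 in intercalated cells (0.303), with edgeR adjusted p in brackets. Gsta4 in all retained nuclei was at 123, 129.8 and 118 CPM against 100.3, 109, 66.6 and 77.2, again without overlap, and its log2 fold change was 0.51 ± 0.17 (edgeR adjusted p 0.191). In distal convoluted tubule it was 0.83 ± 0.31 (0.255). Gsta2 pointed the other way in proximal tubule, at 36.8, 42.8 and 44.3 CPM against 37.7, 54.4, 71.5 and 83.4, with 2-kidney replicate 1 among the 1-kidney values and set P1117B highest. Its log2 fold change was -0.61 ± 0.25 in proximal tubule (edgeR adjusted p 0.272), -0.67 ± 0.26 in the convoluted cluster (0.315) and -0.32 ± 0.23 in the straight cluster (0.511). Gstt2 in endothelium was at 28.8 ± 8.73 against 15.4 ± 6.24 CPM, a log2 fold change of 1.07 ± 0.38 (edgeR adjusted p 0.238), with overlap. In all retained nuclei the 15 proximal tubule markers summed to 41003 to 46942 CPM in the 1-kidney and 21632 to 37119 CPM in the 2-kidney libraries, and the part of this in the member values was not tested.

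Among the sulfotransferases, Sult1a1 in proximal tubule was at 49.9, 44.6 and 49.99 CPM in the 1-kidney and 11.8, 28.3, 16.0 and 30.6 CPM in the 2-kidney libraries. The groups did not overlap, and the means of 48.2 ± 3.11 and 21.7 ± 9.18 CPM gave a log2 fold change of 1.10 ± 0.29 (edgeR adjusted p 0.239). Within the straight cluster it was 1.00 ± 0.26 (0.218) and in thick ascending limb 1.32 ± 0.41 (0.196). Sult2a1, which sulfates hydroxysteroids and bile acids, rested on 93 UMIs in proximal tubule, at 6.57, 5.57 and 5.43 against 2.59, 1.89, 1.79 and 2.70 CPM. Its groups did not overlap, with a log2 fold change of 1.35 ± 0.32 (edgeR adjusted p 0.239). In all retained nuclei it was 1.04 ± 0.28 (0.172). Sult1c2, a near copy of Sult1c2a, was lower in the proximal tubule of every 1-kidney library, at 62.4, 54.7 and 66.0 against 89.0, 69.0, 88.9 and 95.6 CPM. Its log2 fold change was -0.51 ± 0.16 (edgeR adjusted p 0.239), while that of Sult1c2a was 0.11 ± 0.34 (0.893). How the authors' counting shared reads between the copies was not tested.

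Ugt1a6 in proximal tubule was at 239, 215 and 187 CPM in the 1-kidney and 399, 232, 314 and 268 CPM in the 2-kidney libraries, which overlap. The log2 fold change was -0.52 ± 0.19 (edgeR adjusted p 0.245). It was -0.23 ± 0.25 within the straight cluster (0.667) and -0.31 ± 0.21 within the convoluted cluster (0.483). The convoluted cluster, where Ugt1a6 is higher, made up 16.2, 15.2 and 18.6% of the proximal tubule nuclei in the 1-kidney and 21.6, 34.0, 50.6 and 44.6% in the 2-kidney libraries, without overlap. The part of these shares in the Ugt1a6 values was not tested. In connecting tubule Ugt1a6 went the other way, at 359, 296 and 249.6 CPM against 191, 260.2, 174 and 199.7, with 1-kidney replicate 3 inside the 2-kidney range. There 0.391% of 6655 genes were called and 0 of 8 members by edgeR or DESeq2, with 3 members and 17.1% of genes at an unadjusted edgeR p under 0.05, and the log2 fold change of Ugt1a6 was 0.54 ± 0.20 (edgeR adjusted p 0.188), beside a median of 0.60 over the proximal tubule markers. Its change in connecting tubule minus that in proximal tubule was 0.99 ± 0.20 on the log2 scale, which missed the threshold (edgeR adjusted p 0.0583), in a test that called 0.0306% of 9793 genes and 0 of 22 members, 1 of them at an unadjusted p under 0.05. Without set P1117B the difference was 0.90 ± 0.22 (edgeR adjusted p 0.153).

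**Figure D5:**
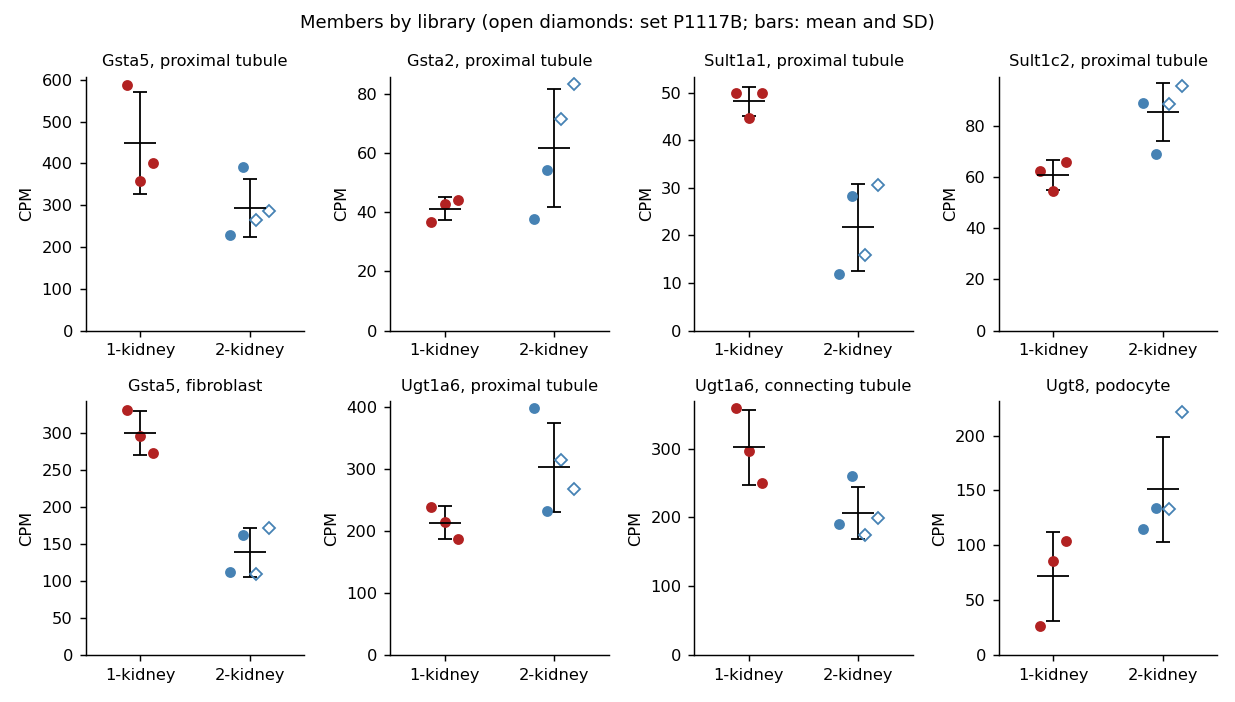
Level in CPM of 6 members in the class named above each panel, with 1 point per library, open diamonds for set P1117B, and bars for mean and SD. Sult1a1 in proximal tubule and Gsta5 in fibroblasts are higher in all 3 of the 1-kidney libraries, Sult1c2 in proximal tubule and Ugt8 in podocytes lower, and the other panels overlap.

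Ugt8 was lower in the podocytes of every 1-kidney library, by the values given above, with means of 71.8 ± 40.5 and 151 ± 47.8 CPM. The lowest value, in 1-kidney replicate 1, came from 55 podocyte nuclei with 114778 UMIs of all genes, the fewest of any library, so it rests on few Ugt8 counts. The log2 fold change was -0.91 ± 0.30 (edgeR adjusted p 0.346), and -0.62 ± 0.33 (0.997) without set P1117B. In podocytes 0.0488% of 6152 genes were called and 0 of 6 members by edgeR or DESeq2, with 1 member, Ugt8, and 9.77% of genes at an unadjusted edgeR p under 0.05. Ugt8 was called in podocytes with no filter on low counts (edgeR adjusted p 0.0454) and without 2-kidney replicate 1 (0.0486). In these 2 settings 60 of 15480 and 170 of 5550 genes were called in podocytes. The 9 podocyte markers summed to 29807 to 30197 CPM in the podocytes of the 1-kidney and 32794 to 36722 CPM in those of the 2-kidney libraries. In all retained nuclei Ugt8 was at 5.55, 6.84 and 12.2 against 17.9, 15.1, 14.3 and 26.9 CPM, a log2 fold change of -1.11 ± 0.30 (edgeR adjusted p 0.172). The 6 thin limb markers in all retained nuclei summed to 91.4 to 135 CPM in the 1-kidney and 176 to 209 CPM in the 2-kidney libraries, and thin limb nuclei made up 1.63% ± 1.40 and 3.55% ± 0.946. Their part in the Ugt8 values was not tested. The change was -1.25 ± 0.44 in principal cells (0.199) and -0.57 ± 0.26 in thick ascending limb (0.331). Gsta3 and Sult2b1 were the other members lower in all retained nuclei at an unadjusted p under 0.05, with log2 fold changes of -0.41 ± 0.17 and -0.38 ± 0.16 (edgeR adjusted p 0.221 and 0.232). Gsta3 was lower in every 1-kidney library there, while Sult2b1 overlapped. Gstm7 went the other way in thick ascending limb, at 0.85 ± 0.39 (edgeR adjusted p 0.331), and in principal cells, at 0.96 ± 0.39 (0.253).

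Members called in the remaining classes numbered 0 by edgeR, where 0% of all genes were called in the straight cluster (10706 genes), the convoluted cluster (7947), thick ascending limb (8235), distal convoluted tubule (7084), principal cells (8446) and intercalated cells (7030), and 0.0593% of 8425 in endothelium. Counts at an unadjusted edgeR p under 0.05 were 6 of 26 members in the straight cluster (15.1% of all genes), 3 of 17 in the convoluted cluster (13.9%), 5 of 17 in thick ascending limb (14.7%), 4 of 13 in distal convoluted tubule (14.7%), 3 of 18 in principal cells (16.7%), 3 of 11 in intercalated cells (11.6%) and 2 of 17 in endothelium (14%). DESeq2 called Gsta5 in endothelium, with 0.499% of all genes, and 0 members in the other 6, where it called 9 to 133 genes. Whether the change differed between the straight and convoluted clusters was tested over 10682 genes, of which 0.00936% were called. Of 24 members 0 passed edgeR's test, with a smallest adjusted p of 0.929 and 0 at an unadjusted p under 0.05. Between thick ascending limb and proximal tubule 0.00925% of 10806 genes and 0 of 26 members passed, with a smallest edgeR adjusted p of 0.533 and 2 members at an unadjusted p under 0.05. DESeq2 was not run on these differences.

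The genes that supply, regulate or carry on the work of the members were taken from 8 lists. None of their genes passed edgeR's test in all retained nuclei or in proximal tubule. At an unadjusted edgeR p under 0.05, at most 3 genes of a list were higher and at most 2 lower in all retained nuclei, and at most 1 higher and 3 lower in proximal tubule. DESeq2 was not tabulated for these lists. Over all genes tested, 49.1% had a log2 fold change above 0 in all retained nuclei and 49% in proximal tubule. In the list for glutathione synthesis and turnover, 4 of 11 tested genes had a log2 fold change above 0 in all retained nuclei and 6 of 11 in proximal tubule. Gpx3, the secreted glutathione peroxidase made by the proximal tubule, was at 299.9 ± 63.4 and 458 ± 62.2 CPM there, a log2 fold change of -0.64 (edgeR adjusted p 0.239). For mercapturate formation and conjugate export the counts were 5 and 6 of 12. Kyat1, a cysteine conjugate beta-lyase, was at 69.5 ± 0.174 and 124 ± 34.3 CPM in proximal tubule (log2 -0.86), and Slc22a8, the organic anion transporter OAT3, was at 147 ± 8.80 and 242 ± 56.2 (log2 -0.74), with an edgeR adjusted p of 0.239 for each. Slc22a8 is also the lead marker of the convoluted cluster, whose share differed between the groups, and its log2 fold change was -0.13 within the straight and -0.27 within the convoluted cluster. The part of the cluster shares in the Slc22a8 change was not tested. For sulfate supply and release 6 of 12 genes were above 0 in all retained nuclei and 4 of 11 in proximal tubule. Arsb, a lysosomal sulfatase, was at 137 ± 17.5 and 229.9 ± 67.7 CPM there (log2 -0.77), and Bpnt1, which clears the by-product of PAPS, at 7.98 ± 1.79 and 13.1 ± 3.07 (log2 -0.67). For UDP-glucuronate supply and release the counts were 7 and 6 of 10, with Ugdh, which makes UDP-glucuronate, at a log2 fold change of 0.51 in all retained nuclei and the transporter Slc35d1 at -0.86 in proximal tubule.

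In the list of regulators 8 of 14 genes were above 0 in all retained nuclei and 6 of 13 in proximal tubule. In proximal tubule Rxra, the partner of many nuclear receptors, was at 37.0 ± 6.09 and 62.3 ± 18.5 CPM (log2 -0.79), and Nfe2l1 at 64.4 ± 6.02 and 36.2 ± 14.3 (log2 0.83). Of 9 tested targets of NRF2 and the aryl hydrocarbon receptor, 1 was above 0 in all retained nuclei, Txnrd1 (log2 0.33), and 2 in proximal tubule. The shares of all genes above 0 were 49.1% and 49%. Mgst1 was at a log2 fold change of -0.51 in proximal tubule. The membrane and other glutathione transferases stood at 7 of 12 and 5 of 9 above 0, with Gstcd at 0.45 and Clic1 at -0.43 in all retained nuclei and Clic5 at 0.71 in proximal tubule. The other conjugating enzymes stood at 7 of 13 and 5 of 12. Tpmt, which methylates thiopurines, was at a log2 fold change of 0.30 in proximal tubule. The remaining genes with the smallest p of their lists had log2 fold changes in all retained nuclei of -0.33 (Gclc), 0.32 (Oplah), 0.37 (Abcc2), 0.43 (Akr1a1), -0.54 (Papss2), 0.46 (Bach1) and 0.55 (Nat1), and in proximal tubule of 0.51 (Gpx4), -0.33 (Miox) and -0.47 (Tiparp). Median log2 fold changes of the 8 lists ran from -0.27 to 0.10 in all retained nuclei and from -0.27 to 0.16 in proximal tubule.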

How the data were processed

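Nuclei were isolated from archived kidneys and read with a droplet assay of transcript ends, per the labels' protocols. The authors deposited 1 filtered matrix per library of raw UMI counts for 25399 genes, made with Cell Ranger 7.0 per the submitters' processing notes. Neither text nor headers name the genome or annotation. Barcodes under 200 genes or over 5% mitochondrial UMIs were dropped, and the highest doublet scores were removed at 0.8% per 1000 nuclei, because the automatic threshold marked at most 4 per library (scanpy 1.11.5). This left 31384 of 37048 barcodes. Clusters came from 2000 variable genes without the members, 30 components, 20 neighbours and resolution 1 (leidenalg 0.10.2). A cluster was named when at least 3 of its class markers passed 2-fold and the lead marker 4-fold, a rule chosen after seeing the data. Leading genes define the clusters and are no result.

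Counts were summed per library and class. The 3 libraries with 1 kidney and the 4 with 2 were compared with edgeR 4.0.16's quasi-likelihood test in R 4.3.3 (TMM scaling, its filter on low counts, adjustment over all genes tested), and with DESeq2 1.42.0 as an alternative. The scripts were tested on simulated data. Differences of change between classes were tested with library as a block, after seeing the data. Levels are CPM, UMIs of a gene scaled by the UMIs of the class. Intervals cover counting error only. Members and gene lists were chosen with earlier results of these data known. Named in full are members of at least 20 CPM in a class, at most the 4 highest of a family, members past an adjusted p of 0.05 or else the 5 with the smallest p in all retained nuclei and proximal tubule and the 2 with the smallest in each other class, and likewise the 2 with the smallest p of each list, of which some are not reported here. Gsta3, Sult2b1 and Gstm7 between the groups, Sult5a1, Sult4a1, Gstm1 and Gstm4, and the pooled clusters were singled out after their values were seen. Alternatives were the scaling, no filter, DESeq2, each library left out, set P1117B left out or as a term, doublets kept, members allowed among the variable genes, and resolution 2.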

Additional observations from a re-analysis of the deposited data

Results flagged for a closer look

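Among 36 pairs of member and class examined in the 2-kidney group, 3 had a library whose gap to its neighbour exceeded 0.829 of the range, where chance gives about 1 in 20. Gsta5 in thick ascending limb was at 77.6 CPM in 2-kidney replicate 2, above the others. Gsta6 in all retained nuclei was at 106.5 CPM in 2-kidney replicate 1. Gstt3 in proximal tubule was at 331 CPM in 2-kidney replicate 1.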

How the results depend on the processing

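Gsta5 in fibroblasts remained past the threshold with RLE scaling, DESeq2, no filter, set P1117B left out or as a term, members among the variable genes and resolution 2, and missed it with doublets kept, when the number of members called there was 0. Leaving out a library gave 0 to 2 members called in fibroblasts, 0 to 2 in podocytes and 0 to 1 in distal convoluted tubule. The highest of these counts came without 2-kidney replicate 1. In that setting 99 of 6180 genes were called in fibroblasts, 170 of 5550 in podocytes and 81 of 7068 in distal convoluted tubule. With all libraries the genes called in these classes numbered 44, 3 and 0. With DESeq2 the members called were 4 in all retained nuclei (469 of 14951 genes) and 1 in proximal tubule (117 of 11191). They were 1 in endothelium (42 of 8425) and 1 in fibroblasts (94 of 6735). With no filter on low counts 1 member was called in the straight cluster, where 148 of 18001 genes were called in all. The counts were 1 in thick ascending limb (196 of 17291 genes) and 2 in principal cells (390 of 16654). In podocytes, endothelium and fibroblasts they were 1 (60 of 15480), 1 (236 of 17134) and 2 (204 of 16665). The cause was not tested. The median marker ratio to proximal tubule moved to 0.346 in distal convoluted tubule at resolution 2. In intercalated cells it moved to 0.724 with doublets kept and 0.656 at resolution 2, in podocytes to 0.207 with doublets kept, and in endothelium to 0.467 with members allowed among the variable genes. Of 29 member changes followed over 420 values under these alternatives, 0 reversed, 14 values were newly past the threshold and 5 no longer past it. The 29 were picked by their p in the same libraries that the alternatives refit, so a kept direction is no separate support. The median change over all genes stayed within 0.0132 of 0 on the log2 scale under both scalings. Both scalings centre most genes near 0, so this value is no test of the scaling. No paired analysis was possible because replicate numbers only follow the order of the samples. Simulated 2-fold changes were recovered for 20% of changed genes in principal cells, 30% in fibroblasts, 37% in podocytes and 54% in all retained nuclei.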

Other observations

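An unnamed cluster of 49 nuclei, led by haemoglobin genes, held Gsto1 at 315 CPM (exact Poisson interval 190 to 492, counting error only) from 19 UMIs and Gsta1 at 415 CPM (268 to 612) from 25 UMIs. Urothelial nuclei, too few for a comparison, held Ugt1a6 at 550 CPM (480 to 628).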
